A study of Mus musculus with 9 samples.

Results

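The genes of elastic microfibrils, elastin and the small leucine-rich proteoglycans are described here in bulk RNA from the mouse left ventricle. They are 9 of the 52636 genes in the deposited count table, and all 9 were among the 16322 genes with enough counts to be analysed. The microfibril genes are *Fbn1*, *Fbn2*, *Mfap4* and *Mfap5*, the elastin gene is *Eln*, and the small proteoglycan genes are *Dcn*, *Bgn*, *Lum* and *Fmod*. They were picked by name, with earlier results of these libraries known.

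The study compared C57BL6J mice with a developmental deletion of the mitochondrial outer membrane channel gene *Vdac2* in ventricular myocytes (VDAC2 KO) with littermates (VDAC2 WT), all 16 weeks old. The KO mice carry *Vdac2* flox/flox and the αMHC-Cre transgene, and the WT littermates carry only the floxed allele or only the Cre, the label of a library not saying which. Cre is driven by the αMHC promoter, which is active in cardiac myocytes, so fibroblasts, vessel cells and immune cells of a KO heart still carry *Vdac2*. Male and female mice were used, the tissue was a transmural sample of the left ventricle, and the RNA was total RNA with ribosomal RNA removed. GEO labels libraries 1 to 5 as WT (n = 5) and libraries 6 to 9 as KO (n = 4), with all of the former on lane 1 and all of the latter on lane 2 of the sequencer.

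The measured level of *Vdac2* (ENSMUSG00000021771, chromosome 14, 21825238 to 21845879, GRCm38) went against these labels. Levels are given as CPM, a gene's counts scaled to a common library size. Among the libraries labelled WT, *Vdac2* was at 20.2 CPM in library 1, 366 in library 2, 58.5 in library 3, 365 in library 4 and 21.3 in library 5. Among those labelled KO it was at 384 in library 6, 20.5 in library 7, 421 in library 8 and 19.1 in library 9. Both labels thus hold libraries with low and with high *Vdac2*. For the description below, libraries were placed in sets that were chosen by measured *Vdac2* CPM and are not genotype groups. Libraries 1, 5, 7 and 9, under 100 CPM, form the Vdac2-low set (n = 4), and libraries 2, 4, 6 and 8, over 300 CPM, the Vdac2-high set (n = 4). Library 3 is given apart. Because a measured level made these sets, the values between them are a description and carry no p-value. Each set has 2 libraries labelled WT from lane 1 and 2 labelled KO from lane 2.

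Between 27345052 and 44673988 reads were counted per library, so that 3 counts correspond to between 0.0693 and 0.114 CPM. Library 3 stood apart from the others before any member gene was considered. The sum of its 6 cardiomyocyte marker genes was 7079 CPM, whereas that of the remaining libraries ran from 35910 to 49240 CPM. Library 3 held 1746 CPM of the defining myosin gene *Myh6*, and no other library held under 15806 CPM. The study left out 1 WT sample because its RNA was of poor quality, and which library this was is not given in the sources used here. *Xist*, the RNA of the inactive X chromosome, reached at most 0.152 CPM under the WT label and at least 335 CPM under the KO label. Sex, lane and label therefore cannot be told apart, whereas each of them is evenly split between the Vdac2 sets.

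Microfibrils are thin threads of fibrillin, encoded by *Fbn1* and *Fbn2*, to which small microfibril-associated glycoproteins such as those of *Mfap4* and *Mfap5* bind. Tropoelastin, the product of *Eln*, is laid down on this scaffold and crosslinked by lysyl oxidases into elastic fibres, which give vessels and heart tissue their recoil. Decorin, biglycan, lumican and fibromodulin, from *Dcn*, *Bgn*, *Lum* and *Fmod*, are small leucine-rich proteoglycans that bind collagen fibrils and affect their thickness and spacing. In the heart these genes are mainly expressed by fibroblasts and other cells of the connective tissue and vessel wall.

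RefSeq promoter entries (GRCm38.p6) were used for 3 of the 9 genes, *Fbn1*, *Bgn* and *Fmod*, and run from 250 bases before to 50 bases after the RefSeq start. For *Fbn1* that start lies 1555 bases inside the GENCODE gene given below, so its window is not at the outermost annotated start. The 3 windows were not picked by the levels of their genes, and no windows are shown for the other members. Library 3 held a high level of all 3 genes, but also of *Mfap4* and *Mfap5*. Between the Vdac2 sets the levels of *Fbn1* and *Bgn* did not overlap and those of *Fmod* did. Capitals mark matches, on either strand, to GGGCGG (the GC box) or CCAAT, and TATAAA was also searched.
*Fbn1*, minus strand, chr2:125506389-125506688: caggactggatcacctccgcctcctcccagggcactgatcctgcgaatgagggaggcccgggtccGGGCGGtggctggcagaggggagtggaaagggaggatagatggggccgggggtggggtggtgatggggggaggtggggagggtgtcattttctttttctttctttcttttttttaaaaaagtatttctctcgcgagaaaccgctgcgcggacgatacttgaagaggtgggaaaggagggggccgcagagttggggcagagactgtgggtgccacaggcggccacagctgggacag
*Bgn*, plus strand, chrX:73483351-73483650: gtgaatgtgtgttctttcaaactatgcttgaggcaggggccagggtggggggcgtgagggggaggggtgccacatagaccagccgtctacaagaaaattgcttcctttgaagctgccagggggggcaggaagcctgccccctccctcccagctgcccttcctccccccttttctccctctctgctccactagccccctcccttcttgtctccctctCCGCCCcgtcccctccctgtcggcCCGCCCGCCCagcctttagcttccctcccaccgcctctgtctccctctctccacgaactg
*Fmod*, plus strand, chr1:134037004-134037303: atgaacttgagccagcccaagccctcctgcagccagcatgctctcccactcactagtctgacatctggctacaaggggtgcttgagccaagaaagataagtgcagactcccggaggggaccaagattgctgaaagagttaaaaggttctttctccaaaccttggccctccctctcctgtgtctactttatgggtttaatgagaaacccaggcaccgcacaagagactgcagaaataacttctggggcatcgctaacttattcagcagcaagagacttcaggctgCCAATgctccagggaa
The *Bgn* window held 3 GC box matches, of which a pair overlap, at a GC content of 63.7%. The *Fbn1* window held 1 GC box match at a GC content of 60.3%. The *Fmod* window held no GC box match and 1 CCAAT match at a GC content of 51.0%. None of the 3 windows held TATAAA. Of all 32851 promoter windows of the same length, 35.7% held GGGCGG, 37.4% held CCAAT and 13.6% held TATAAA, so these matches are common ones and describe the windows only.

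**Figure D1:**
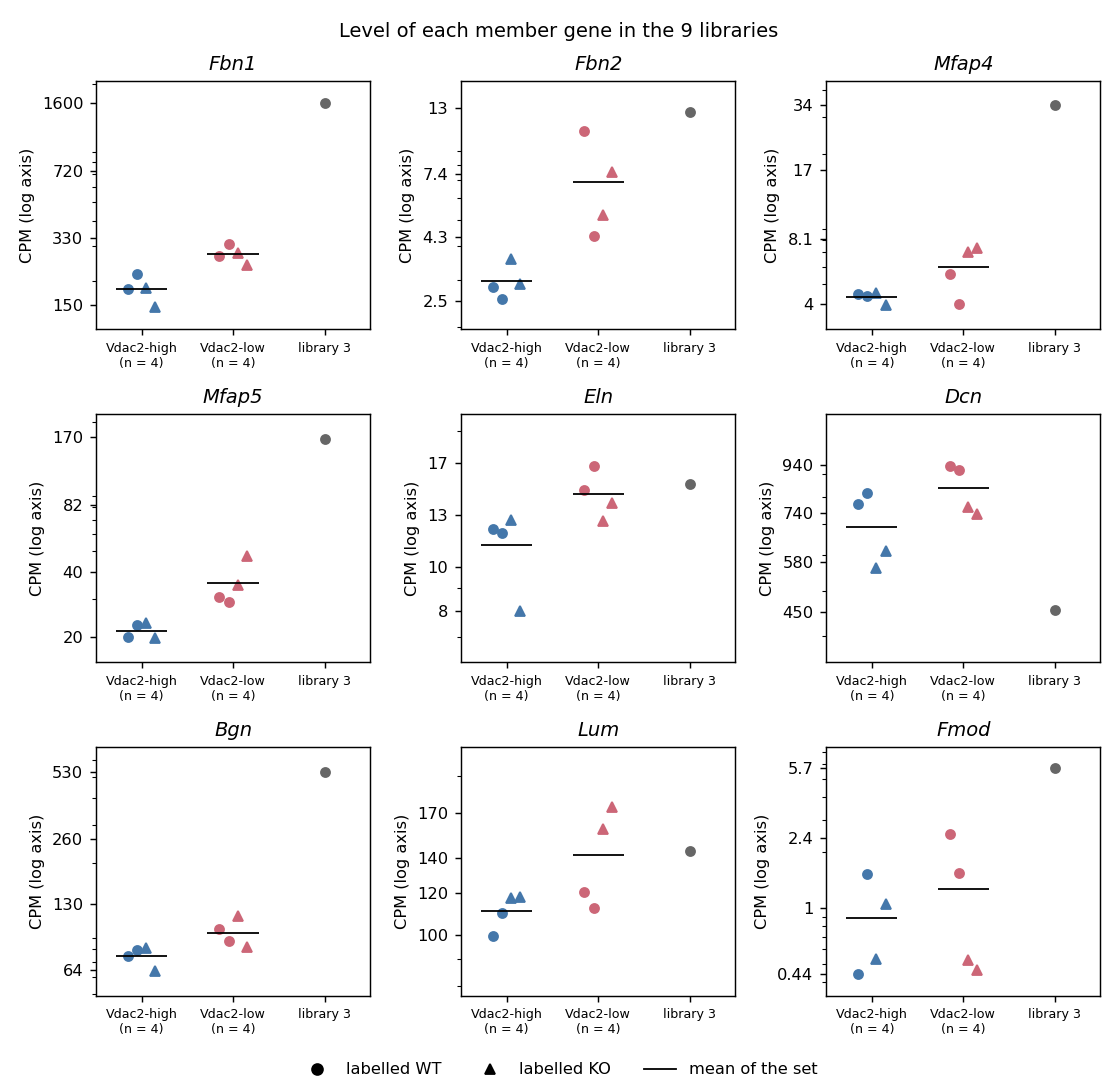
Level of each of the 9 genes in CPM (log axis) in the Vdac2-high set, the Vdac2-low set and library 3, with circles for libraries labelled WT, triangles for those labelled KO and a line at the mean of each set (n = 4). The sets do not overlap for *Fbn1*, *Fbn2*, *Mfap5* and *Bgn*, and library 3 lies far above both sets for *Fbn1*, *Mfap4*, *Mfap5*, *Bgn* and *Fmod*, but below both for *Dcn*.

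The fitted log2 fold change of all 9 genes was above 0 in the Vdac2-low set, with a median of 0.47 against 0.0023 over all 16322 genes. 4 of the 9 genes were higher in every Vdac2-low library than in any Vdac2-high library, against 7.16% of all genes. 2 of the 9, *Fbn2* and *Mfap5*, were also past a 1.5-fold difference, against 2.74% of all genes. No gene of the 9 was lower without overlap, against 4.93% of all genes. Because the genes were chosen with these libraries known, these counts are not independent evidence of a direction. In bulk RNA, more cells of a type and more RNA per cell cannot be told apart.

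*Fbn1* (ENSMUSG00000027204, chromosome 2, 125300594 to 125507993, minus strand), which encodes the main fibrillin of adult tissue, was the microfibril gene with the highest level. In the Vdac2-low set it was at 267, 306, 278 and 239 CPM in libraries 1, 5, 7 and 9. In the Vdac2-high set it was at 181, 217, 184 and 147 CPM in libraries 2, 4, 6 and 8. The sets were separated, with library 9 the lowest of the former and library 4 the highest of the latter. Their means were 272 ± 27.6 and 182 ± 28.7 CPM (SD, n = 4 each), a log2 fold change of 0.58 with a standard error of 0.11. This difference lay just short of 1.5-fold, and which side of it *Fbn1* fell on depended on the scaling and on single libraries. The difference was similar in both lanes, with a log2 fold change of 0.53 in lane 1 and 0.64 in lane 2.

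*Fbn2* (ENSMUSG00000024598, chromosome 18, 58008623 to 58210487, minus strand) encodes a fibrillin that is best known from developing tissue. It was at 10.7, 4.33, 5.19 and 7.48 CPM in libraries 1, 5, 7 and 9, and at 2.82, 2.55, 3.58 and 2.88 CPM in libraries 2, 4, 6 and 8. All Vdac2-low values were above all Vdac2-high values, but they were far more spread, with a coefficient of variation of 40.9% against 14.9%. The means were 6.92 ± 2.83 and 2.96 ± 0.44 CPM (SD, n = 4 each), and the log2 fold change of 1.21 with a standard error of 0.26 was the largest of the 9 genes. It exceeded the log2 fold change of 99.2% of all genes analysed. Within lanes the log2 fold change was 1.48 in lane 1 and 0.97 in lane 2.

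*Mfap5* (ENSMUSG00000030116, chromosome 6, 122505845 to 122529290, plus strand), whose product binds fibrillin along the microfibril, was at 30.8, 29.0, 34.7 and 47.5 CPM in libraries 1, 5, 7 and 9. In libraries 2, 4, 6 and 8 it was at 19.9, 22.7, 23.1 and 19.8 CPM. The Vdac2-high libraries were close together and every Vdac2-low library was above them, with library 9 the highest. The means were 35.5 ± 8.35 and 21.4 ± 1.78 CPM (SD, n = 4 each), a log2 fold change of 0.73 with a standard error of 0.14. The log2 fold change was 0.49 in lane 1 and 0.94 in lane 2.

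*Mfap4* (ENSMUSG00000042436, chromosome 11, 61485431 to 61488900, plus strand) encodes a glycoprotein that binds fibrillin and tropoelastin. It was at 5.55, 4.03, 7.04 and 7.32 CPM in libraries 1, 5, 7 and 9, and at 4.46, 4.37, 4.51 and 3.97 CPM in libraries 2, 4, 6 and 8. The sets overlapped, because library 5 lay below 3 of the 4 Vdac2-high libraries. The means were 5.98 ± 1.52 and 4.33 ± 0.24 CPM (SD, n = 4 each), a log2 fold change of 0.47 with a standard error of 0.17. Most of this came from lane 2, where the log2 fold change was 0.76, against 0.11 in lane 1.

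*Eln* (ENSMUSG00000029675, chromosome 5, 134702593 to 134747323, minus strand), the gene of the elastic core protein itself, was at 14.8, 16.7, 12.6 and 13.9 CPM in libraries 1, 5, 7 and 9. In libraries 2, 4, 6 and 8 it was at 12.1, 11.9, 12.7 and 8.003 CPM. Library 7 and library 6 nearly met and overlapped by under 0.1 CPM, and library 8 lay below all others. The means were 14.5 ± 1.74 and 11.2 ± 2.14 CPM (SD, n = 4 each), with a log2 fold change of 0.37 and a standard error of 0.14. Without library 8 the log2 fold change was 0.24. The lanes were close to each other, at 0.39 and 0.35.

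4 of the 9 genes, *Fbn1*, *Fbn2*, *Mfap4* and *Eln*, overlap at one end with an annotated gene on the opposite strand, over between 89 and 2793 bases. The libraries were stranded, but the strand setting of the counting is not given in the sources used here, so how such reads were counted is not known.

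*Dcn* (ENSMUSG00000019929, chromosome 10, 97479609 to 97518143, plus strand), the decorin gene and a widely used fibroblast marker, had the highest CPM of the 9 in each library of the sets, though not in library 3. It was at 935, 916, 764 and 737 CPM in libraries 1, 5, 7 and 9, and at 774, 819, 560 and 612 CPM in libraries 2, 4, 6 and 8. The sets overlapped when lanes were pooled, since libraries labelled WT on lane 1 were higher in each set than those labelled KO on lane 2. The means were 838 ± 102 and 691 ± 125 CPM (SD, n = 4 each), and the log2 fold change of 0.28 with a standard error of 0.13 was the smallest of the 9. Within each lane the sets did not overlap, with log2 fold changes of 0.22 in lane 1 and 0.36 in lane 2.

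*Bgn* (ENSMUSG00000031375, chromosome X, 73483602 to 73495933, plus strand), the biglycan gene, was at 99.0, 87.5, 114 and 81.7 CPM in libraries 1, 5, 7 and 9. In libraries 2, 4, 6 and 8 it was at 75.0, 79.3, 81.4 and 63.8 CPM. The sets were separated by a gap of under 1 CPM, between library 9 and library 6, and they overlapped when the libraries were scaled by upper quartiles or by DESeq2. The means were 95.7 ± 14.4 and 74.8 ± 7.84 CPM (SD, n = 4 each), a log2 fold change of 0.35 with a standard error of 0.11. Within lanes the log2 fold change was 0.27 in lane 1 and 0.43 in lane 2.

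*Lum* (ENSMUSG00000036446, chromosome 10, 97565128 to 97572703, plus strand) encodes lumican and is the neighbour of *Dcn* on the same strand. It was at 120, 113, 158 and 175 CPM in libraries 1, 5, 7 and 9, and at 99.6, 110, 117 and 118 CPM in libraries 2, 4, 6 and 8. Library 5 fell within the Vdac2-high range, and both Vdac2-low libraries of lane 2 were well above every other library of the 8. The means were 141 ± 29.8 and 111 ± 8.44 CPM (SD, n = 4 each), a log2 fold change of 0.35 with a standard error of 0.13, and without library 9 it was 0.23. The log2 fold change was 0.15 in lane 1 and 0.50 in lane 2.

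*Fmod* (ENSMUSG00000041559, chromosome 1, 134037254 to 134048277, plus strand), the fibromodulin gene, was the rarest of the 9, with between 12 and 211 counts per library. It was at 2.53, 1.56, 0.527 and 0.462 CPM in libraries 1, 5, 7 and 9, and at 0.439, 1.52, 0.530 and 1.06 CPM in libraries 2, 4, 6 and 8. The sets overlapped broadly. The means were 1.27 ± 0.98 and 0.89 ± 0.50 CPM (SD, n = 4 each), with a log2 fold change of 0.49 and a standard error of 0.61, which is larger than the difference itself. Its direction differed between lanes, with a log2 fold change of 1.06 in lane 1 and -0.67 in lane 2, and it was -0.083 when library 1 was left out.

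**Figure D2:**
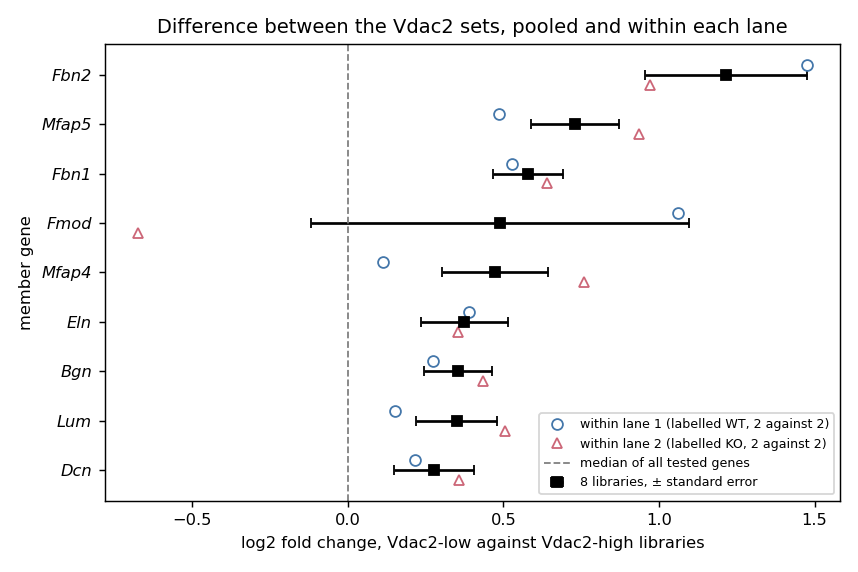
Log2 fold change of each of the 9 genes between the Vdac2-low and Vdac2-high sets. Squares with bars give the fit over 8 libraries and its standard error, open symbols the fits within lane 1 (circles) and lane 2 (triangles), and the dashed line the median of all genes. Of the open symbols, only that of *Fmod* in lane 2 lies below 0.

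Within lanes, where 2 libraries stand against 2, 8 of the 9 genes were higher without overlap in lane 1, against 24.5% of all genes, and 7 of the 9 in lane 2, against 20.7% of all genes. *Mfap4* was the exception in lane 1. In lane 2 the sets of *Eln* overlapped, and *Fmod* was lower without overlap by a narrow gap, as were 17.1% of all genes by any gap.

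Other cell types were read from marker lists that contain none of the 9 genes, and their part in the differences was not tested. The 5 macrophage markers summed to between 219 and 286 CPM in the Vdac2-low set and to between 150 and 204 CPM in the Vdac2-high set. 3 of them, *Adgre1*, *Cd68* and *Cd163*, were higher without overlap, against 7.16% of all genes. The 7 fibroblast markers, which leave out *Dcn* and *Lum*, summed to between 1769 and 1970 CPM and to between 1507 and 1883 CPM, and the sum is mostly *Gsn*. Of these 7, *Tcf21*, *Dpt* and *Pcolce* were higher without overlap in the Vdac2-low set, against the same 7.16% of all genes. All 7 had a log2 fold change above 0. The 6 cardiomyocyte markers ran the other way, with sums between 35910 and 41040 CPM in the Vdac2-low set and between 41540 and 49240 CPM in the Vdac2-high set. *Myh6* is the largest part of this sum. 1 of the 6, *Actn2*, was lower without overlap, against 4.93% of all genes. *Tnnt2* and *Pln* differed little, with log2 fold changes of -0.089 and -0.084. The 5 endothelial markers summed to between 479 and 594.5 CPM and to between 594.7 and 689 CPM, and 1 of them, *Pecam1*, was lower without overlap. The 5 smooth muscle markers summed to between 314 and 606 CPM and to between 287 and 375 CPM. The smooth muscle sum is mostly *Acta2*, and 3 of the 5, *Myh11*, *Tagln* and *Smtn*, had a log2 fold change below 0, with a list median of -0.087. Atrial genes were low, with a sum between 1.86 and 4.13 CPM over all 9 libraries, and the atrial gene *Sln* was at or near 0 in each.

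The 4 epicardial markers, genes of the cell layer that covers the heart, summed to 26.9, 20.5 and 21.7 CPM in libraries 1, 5 and 4 and to 22.4 CPM in library 3. They were between 5.38 and 12.5 CPM in the other 5 libraries. *Fmod* was also highest in libraries 1, 3, 4 and 5. Of all genes analysed, *Lrp2*, *Gnat3* and the epicardial gene *Upk3b* had the levels most like *Fmod* over the 8 libraries, with Pearson correlations of log2 CPM of 0.98, 0.97 and 0.97. *Upk3b* was at 12.1, 9.0, 1.85 and 1.62 CPM in libraries 1, 5, 7 and 9 and at 2.60, 9.89, 2.36 and 4.68 CPM in libraries 2, 4, 6 and 8. The epicardial gene *Wt1* shared this pattern only in part. It was highest in libraries 1 and 5, at 3.97 and 3.36 CPM, but library 4 at 3.01 CPM lay below library 2 at 3.03 CPM. Its lowest level, 1.62 CPM, was in library 3, where *Fmod* was highest.

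Library 3, labelled WT and with *Vdac2* between the sets, had a distinct makeup of these genes. *Fbn1* was at 1590 CPM, 5.83 times the Vdac2-low mean, and *Bgn* at 528 CPM, 5.52 times that mean. *Mfap4* was at 33.8 CPM, *Mfap5* at 167 CPM and *Fmod* at 5.69 CPM, which are 5.66, 4.70 and 4.49 times the Vdac2-low mean. *Fbn2* was at 12.5 CPM, 1.81 times that mean and close to library 1. *Eln* at 15.2 CPM and *Lum* at 144 CPM were near the Vdac2-low mean, at 1.05 and 1.02 times its value, and *Dcn* at 454 CPM was 0.54 times its value and the lowest of the 9 libraries. With 1 library there is no spread to set these values against, and its low cardiomyocyte sum, given above, its fibroblast sum of 699 CPM and its macrophage sum of 475 CPM stand beside them. The fibroblast markers were mixed in library 3, where *Gsn* was 0.17 and *Dpt* 0.56 times the Vdac2-low mean, *Dpep1* 0.36 times, and *Pdgfra*, *Tcf21*, *Ddr2* and *Pcolce* were 1.38, 1.39, 1.32 and 2.28 times that mean. Of the smooth muscle markers, *Tagln* was 7.73 times and *Cnn1* 23.2 times the Vdac2-low mean, *Acta2* 1.09 times, and *Myh11* and *Smtn* 0.71 and 0.49 times. The macrophage markers were mixed as well, with *Adgre1*, *Csf1r*, *Cd68* and *C1qa* at 2.96, 1.78, 4.54 and 1.87 times that mean and *Cd163* at 0.45 times. The part of these cell types in the levels of library 3 was not tested.

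Compared per length of exon, in CPM per kb, the order of the genes over the 8 libraries of the sets was *Dcn*, *Lum*, *Fbn1*, *Bgn*, *Mfap5*, *Mfap4*, *Eln*, *Fbn2* and *Fmod*. The median level was 131.7 CPM per kb for *Dcn*, 47.96 for *Lum*, 18.81 for *Fbn1*, 13.37 for *Bgn* and 7.255 for *Mfap5*. It was 2.333 for *Mfap4*, 1.562 for *Eln*, 0.2994 for *Fbn2* and 0.2404 for *Fmod*. The ranges over the 8 libraries overlapped between *Fbn1* and *Bgn*, *Bgn* and *Mfap5*, *Mfap4* and *Eln*, and *Fbn2* and *Fmod*, so these neighbours were not separated across libraries. Within each of the 8 libraries, however, *Fbn1* was above *Bgn*, *Bgn* above *Mfap5* and *Mfap4* above *Eln*, whereas *Fbn2* was above *Fmod* in 5 of the 8. In library 3 the order began with *Fbn1* at 131.1 CPM per kb and *Bgn* at 86.59, followed by *Dcn* at 77.8 and *Lum* at 58.83.

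Paired genes were also set against each other on this per-length scale. The level of *Bgn* was 11.1% ± 2.27 of that of *Dcn* in the Vdac2-low set and 10.6% ± 2.22 in the Vdac2-high set (SD, n = 4 each), but 111% in library 3. *Lum* was 41.5% ± 13.6 and 39.6% ± 9.70 of *Dcn* in the sets and 75.6% in library 3. The *Lum* to *Dcn* ratio followed lane, label and sex, which cannot be told apart, and not the Vdac2 sets. Its values were 30.7%, 30.7%, 32.0% and 29.3% in libraries 1, 2, 4 and 5. It was 49.9%, 49.5%, 45.9% and 56.5% in libraries 6, 7, 8 and 9. Among the microfibril genes, *Fbn2* was 2.39% ± 1.08 of *Fbn1* in the Vdac2-low set and 1.52% ± 0.34 in the Vdac2-high set, and 0.724% in library 3. *Mfap5* was 45.1% ± 15.3 and 40.2% ± 4.65 of *Fbn1*, and 35.5% in library 3, so that it stayed near *Fbn1* also there. *Eln* was 7.99% ± 0.82 and 9.18% ± 1.16 of *Fbn1* in the sets, but 1.44% in library 3. All 7 ratios computed overlapped between the sets.

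**Figure D3:**
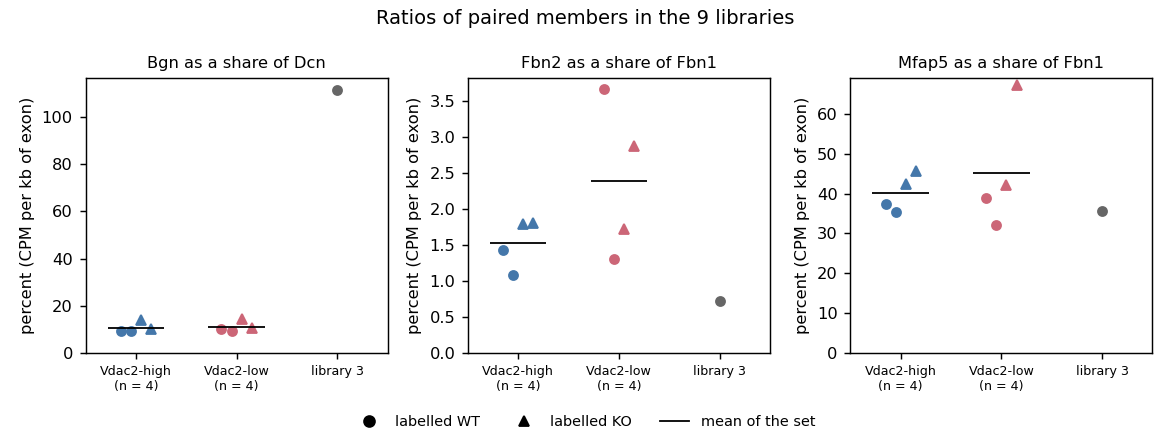
Level of *Bgn* as a percent of *Dcn*, and of *Fbn2* and *Mfap5* as a percent of *Fbn1*, from CPM per kb of exon, in each library by Vdac2 set, with circles for labelled WT, triangles for labelled KO and a line at the set mean (n = 4). The sets overlap in all 3 panels, and in library 3 *Bgn* reaches 111% of *Dcn*.

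The 9 genes did not vary as one block. Over the 8 libraries, the Pearson correlation of log2 CPM among their 36 pairs had a median of 0.55 and ranged from -0.36 to 0.89. Of these pairs, 32 were above 0. After the mean of each Vdac2 set was taken out, the median was -0.0051 and 18 of the 36 pairs were above 0. *Mfap4*, *Mfap5* and *Lum* then still varied together, at 0.77 to 0.84 for the 3 pairs, and so did *Fbn1* and *Eln* at 0.74, whereas *Dcn* and *Lum* ran opposite at -0.73. These libraries share lane, label and sex in groups of 4, as seen for *Dcn* and *Lum*, and the correlations are descriptions.

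The genes most like each member over the same 8 libraries were picked from all genes analysed, with the highest Pearson correlation of log2 CPM. *Bgn* was matched by *Antxr1*, *Col1a1* and *Nectin1*, each at 0.97. *Col1a1*, the gene of the main chain of type I collagen, averaged 37.9 CPM in the Vdac2-low and 22.2 CPM in the Vdac2-high set. *Fbn1* was most like *Phgdh*, *Pik3r5* and *Tagln2*, each at 0.98, and *Fbn2* most like *Atp8a2*, *Kctd1* and *Pfkp*, each at 0.98. *Phgdh*, the first enzyme of serine synthesis, averaged 1.16 and 0.156 CPM in these sets. *Mfap5* was most like *Galns*, *Dbn1* and *Emp1*, at 0.99, 0.99 and 0.98, and *Mfap4* most like *Tpbg*, *Ccdc39* and *Tro*, at 0.99, 0.97 and 0.97. *Dcn* was most like *Gmip*, *Ifi204* and *Man1a*, at 0.99, 0.98 and 0.98. *Lum* was most like *Kcna4*, *Ywhah* and *Hebp2*, at 0.98, 0.98 and 0.97, and *Eln* most like *Entpd1*, *Tmem39a* and *Cyp20a1*, at 0.97, 0.97 and 0.96. With 16322 genes to pick from and 8 libraries, these likenesses are descriptions.

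The other genes of elastic fibre assembly, the other small leucine-rich proteoglycans and the enzymes that build their glycosaminoglycan chains were taken as companion lists of 49 genes, of which 43 were analysed. Of the 43, 6 were higher without overlap in the Vdac2-low set and 0 were lower, against 7.16% and 4.93% of all genes, and the median log2 fold change was 0.20. Of the 22 elastic fibre assembly genes, 5 were higher without overlap, with a list median of 0.28. They were *Lox*, *Loxl1* and *Loxl2*, which encode crosslinking oxidases, *Efemp2*, which encodes the fibulin that brings lysyl oxidase to tropoelastin, and *Emilin1*, which encodes a glycoprotein of the elastic fibre surface. Apart from *Lox*, these were named after their values were seen. None of the 8 other small leucine-rich proteoglycans separated the sets, with a list median of 0.17, and of the 13 chain enzymes *Dse*, which makes dermatan sulfate from chondroitin sulfate, did so, with a list median of 0.010.

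*Lox* was past 1.5-fold without overlap, as 1 of the 43 companion genes, which is no larger a share than the 2.74% of all genes. It was at 11.8, 9.34, 10.9 and 14.3 CPM in libraries 1, 5, 7 and 9, and at 4.79, 6.43, 2.36 and 2.03 CPM in libraries 2, 4, 6 and 8. Every Vdac2-low library was above every Vdac2-high one, with a log2 fold change of 1.602 and a standard error of 0.34. Within lanes the log2 fold change of *Lox* was 0.92 in lane 1 and 2.52 in lane 2. In library 3 *Lox* was at 645 CPM, far above all of these.

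**Figure D4:**
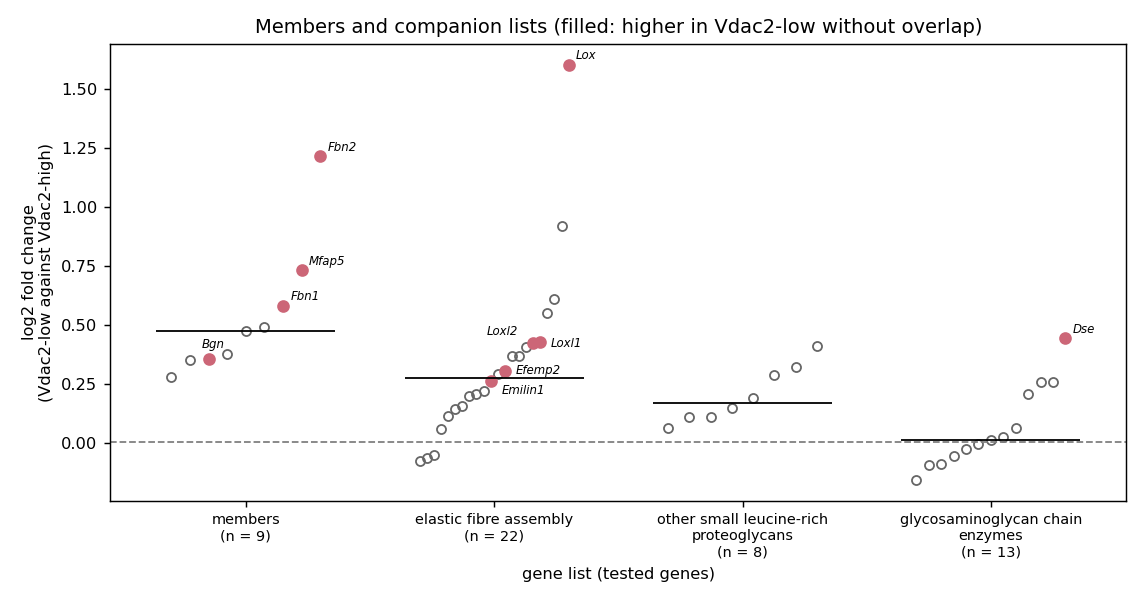
Log2 fold change between the Vdac2-low and Vdac2-high sets for the 9 genes and the 3 companion lists, 1 point per gene, with a line at each list's median and a dashed line at the median of all genes. Filled, named points were higher in the Vdac2-low set without overlap, and they number 4 of 9, 5 of 22, 0 of 8 and 1 of 13.

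Between the libraries labelled KO and those labelled WT, none of the 9 genes passed the test. edgeR's quasi-likelihood test over all 9 libraries, with Benjamini-Hochberg adjustment over 16322 genes, called 0 of the 9, against 0.0551% of all genes, and DESeq2 called 0 of the 5 to which it gave an adjusted p, against 0.443% of the 15796 genes with such a value. DESeq2 gave no adjusted p for *Fbn1*, *Mfap4*, *Mfap5* and *Bgn*. At an unadjusted p under 0.05 in edgeR, 1 of the 9 passed, near the background of 6.11% of all genes. It was *Fmod*, which averaged 2.35 ± 2.01 CPM in the libraries labelled WT (n = 5) and 0.645 ± 0.278 CPM in those labelled KO (SD, n = 4). Its log2 fold change was -1.87 with a standard error of 0.65, and its p from edgeR was 0.017 before and 0.68 after adjustment. *Fbn1* averaged 512 ± 604 CPM and 212 ± 57.9 CPM, with a log2 fold change of -1.27, a standard error of 0.67 and an adjusted p of 0.68 from edgeR. The SD of the libraries labelled WT exceeds their mean here because of library 3. Without library 3 the log2 fold change of *Fbn1* was -0.20, that of *Fmod* -1.26, that of *Fbn2* -0.095, that of *Dcn* -0.37, that of *Bgn* -0.0032 in place of -1.03, that of *Mfap4* 0.31 in place of -0.88 and that of *Mfap5* 0.28 in place of -0.79. *Lum* was the 1 gene of the 9 with a higher mean in the libraries labelled KO, at 142 ± 29.1 CPM against 117 ± 16.7 CPM, with a log2 fold change of 0.28 and an adjusted p of 0.68 from edgeR. For *Fbn2*, *Eln* and *Dcn* the log2 fold changes were -0.46, -0.26 and -0.22, with standard errors of 0.53, 0.18 and 0.22. Leaving out library 8 gave -0.12 for *Eln*, and leaving out library 9 gave 0.16 for *Lum*. Since both labels mix libraries of low and high *Vdac2*, this comparison does not set low against high *Vdac2*. Of the 43 companion genes edgeR called 0, and 5 had an unadjusted p under 0.05, against the same 6.11% of all genes.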

How the data were processed

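Total RNA libraries of left ventricle were sequenced with 50-base single-end reads. The authors aligned them to GRCm38 and deposited 1 table of raw counts per Ensembl gene, without normalization. STAR 2.7.2c and featureCounts 1.6.3 are listed in the submitters' processing notes. The Ensembl release, how strand was set and how multi-mapping reads were handled are not given in the sources used here. Symbols, coordinates and exon lengths were taken from GENCODE M21 (GRCm38), which named 52489 of the 52636 genes.

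The count test used edgeR 4.0.16 in R 4.3.3, with filterByExpr on the labels (16322 genes), TMM normalization over 9 libraries and robust quasi-likelihood fits. Labelled KO was compared with labelled WT, with Benjamini-Hochberg adjustment over all tested genes and a threshold of 0.05. The study used DESeq2, which was run here (1.42.0) as an alternative to edgeR. Between the Vdac2 sets, the 8-library fit gave log2 fold changes without p-values. Each standard error is the size of the log2 fold change over the root of its F statistic. Log2 CPM for correlations used a prior count of 2. The script was also run on simulated data with a fixed spread between libraries. For the Vdac2 sets, the pass limit for recovered changes was lowered after the result was seen. That run therefore does not measure how well changes are recovered here.

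The genes, the sets and the companion and marker lists were chosen with earlier results of these data known. The genes named are the 9 members, *Vdac2*, companion genes without overlap and past 1.5-fold, and for each member the 3 most correlated genes. Other companion genes and marker genes were named after their values were seen. No 2 libraries agreed within sampling noise (over 36 pairs, chi-square per degree of freedom was at least 7.35). The labels do not say whether each library came from a separate mouse, so p-values measure the spread between these libraries. Depth ran from 27345052 to 44673988 counts, and the floor of 3 counts covers counting error only. Alternatives were RLE and upper-quartile scaling, DESeq2, no filter, at least 10 counts in every library, a lane term, single lanes, library 3 added to the Vdac2-low set and each library left out.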

Additional observations from a re-analysis of the deposited data

Results flagged for a closer look

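Among the 5 libraries labelled WT, library 3 was far above the other 4 for *Fbn1* at 1590 CPM, *Mfap4* at 33.85 CPM, *Mfap5* at 166.9 CPM and *Bgn* at 528.1 CPM. The same library supplied all 4 of these distant values. *Eln* in library 8, at 8.003 CPM, was far below the other 3 Vdac2-high libraries. *Fmod* in library 8, at 1.059 CPM, was far above the other 3 libraries labelled KO, on low counts. A gap of such size, judged by Dixon's test at the 95% level, is expected by chance in about 5% of groups. The 9 genes were looked at in groups by label and by Vdac2 set, so a few such gaps are expected among them. *Fmod* moved in opposite directions in the lanes, with every Vdac2-low library above the Vdac2-high ones in lane 1 and below them in lane 2, and its log2 fold change was lower in lane 2 than in lane 1 (difference -1.734). That difference was not tested.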

How the results depend on the processing

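No paired analysis was possible because libraries of the 2 labels share no replicate number. The count of 4 genes higher without overlap stood against 7.16% of all genes. Within lanes, where fewer libraries are compared, it was 8 in lane 1 and 7 in lane 2, against 24.5% and 20.7%. With 1 of the 8 libraries left out it was between 4 and 6, against between 8.77% and 9.91% of all genes. Upper-quartile scaling and DESeq2 each gave 3, since *Bgn* then overlapped, against 7.73% and 6.71% of all genes. No low-count filter gave 5, since *Eln* then separated, against 4.45% of 32807 genes. *Fbn1*, *Fbn2* and *Mfap5* were higher without overlap in each of these alternatives. Which genes were past 1.5-fold without overlap was less stable. *Fbn1* was past it with upper-quartile scaling, with no low-count filter, within lane 2 and without library 1, 4, 6 or 9. *Mfap4* was past it within lane 2 and without library 5. *Fmod* was past it within lane 1, and within lane 2 in the other direction (log2 fold change -0.67). *Mfap5* was short of it within lane 1 (log2 fold change 0.49) and without library 9 (0.56). Adding library 3 to the Vdac2-low set gave log2 fold changes of 1.56 for *Fbn1*, 1.42 for *Mfap4*, 1.53 for *Mfap5*, 1.28 for *Bgn* and 1.28 for *Fmod*, but 0.14 in place of 0.28 for *Dcn*. By label, 0 of the 9 genes were called under every alternative run, with the lowest adjusted p between 0.23 and 0.90. DESeq2, which gave the lowest of these, had an adjusted p for 5 of the 9 genes and could not have called *Fbn1*, *Mfap4*, *Mfap5* or *Bgn*. With 1 library left out, the log2 fold change by label ranged from -1.09 to 0.31 for *Mfap4* and from -1.06 to 0.28 for *Mfap5*, positive for both without library 3 (adjusted p 0.59 and 0.73 from edgeR). Over all genes, calls by label numbered 9, but 62 without library 3, 70 with DESeq2 and 0 with at least 10 counts in every library. Depth limited *Fmod*, with as few as 12 counts, more than the other 8 genes.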
